A study of Mus musculus with 12 samples.

Results

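Iron storage, transport and heme genes were followed across 4 groups of mouse bone marrow-derived macrophages. The set held 10 genes, chosen by symbol: Fth1, Ftl1, Ncoa4, Slc40a1, Tfrc, Slc11a2, Slc39a14, Slc11a1, Hmox1 and Lcn2. Each symbol matched 1 Ensembl ID among the 56980 gene IDs of the count table, and all 10 passed the filter on low counts and were tested, among 15110 genes in all. The macrophages were grown for 7 days, from marrow freed of red cells by lysis, in medium conditioned by L929 cells, a fibroblast line that secretes a macrophage growth factor. The mice were labelled RankCre-Regnaes3cKO (cKO), a conditional knockout of Regnase-3 with a Cre named for the receptor RANK, or wildtype (WT). The cells carried the label M1, read here as the stimulated state with 100 ng/ml of lipopolysaccharide (LPS) plus 10 ng/ml of interferon-gamma, or M0, read as unstimulated. The groups were thus cKO_M1, WT_M1, cKO_M0 and WT_M0, with 3 libraries each and replicate numbers 7 to 9, 10 to 12, 1 to 3 and 4 to 6 in that order. The labels describe no Cre-only control, so the deletion and the presence of Cre cannot be told apart. The labels do not say that replicates were separate mice or cultures, so the p-values measure only the spread between these libraries, which may be technical. The sources used here give neither the age and strain of the mice nor the length of stimulation.

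Iron in a macrophage arrives bound to transferrin, as free iron or as heme from engulfed red cells. It is stored inside the ferritin shell, built from heavy chains (Fth1) and light chains (Ftl1), and it leaves through ferroportin (Slc40a1), the exporter of cellular iron. The iron regulatory proteins tie several of these messages to the iron level by binding a hairpin, the iron-responsive element. In a 5' UTR the bound hairpin blocks translation, and in a 3' UTR it protects the message from decay. Withholding iron from microbes is a known part of the macrophage response to infection.

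The hairpins are shown because some of the genes below carry a match in the 5' UTR and others in the 3' UTR, while the rest carry one in neither. Protein-coding transcripts of GENCODE M21 (build GRCm38) were searched on the transcribed strand for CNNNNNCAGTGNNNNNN, in which the 5 bases before the loop CAGTGN must pair with the 5 bases after it (Watson-Crick or G-T pairs). A match in every position was present in 4 of the 10 genes, against 1.34% of 21901 genes with a protein-coding transcript. With 1 unpaired position allowed, Slc11a2 also had a match in the 3' UTR of 1 of its transcripts, but this looser pattern was in 10.7% of all genes. It matched the coding sequence of Lcn2 and Slc11a1 as well. A match is a description of the letters. Capitals mark the loop, and coordinates are those of GRCm38.
Fth1 5' UTR, chr19:9982731-9982759, plus strand: tttcctgcttcaaCAGTGCttgaacggaa
Ftl1 5' UTR, chr7:45459780-45459808, minus strand: tgtcttgcttcaaCAGTGTttgaacggaa
Slc40a1 5' UTR, chr1:45925466-45925494, minus strand: ccaacttcagctaCAGTGTtagctaagtt
Tfrc 3' UTR, chr16:32631218-32631246, plus strand: taattatcggaagCAGTGCcttccataat
Tfrc 3' UTR, chr16:32631597-32631625, plus strand: acattatcgggagCAGTGTcttccataat
Tfrc 3' UTR, chr16:32631662-32631690, plus strand: tctatatcggagaCAGTGAtctccatatg
Tfrc 3' UTR, chr16:32631709-32631737, plus strand: taattatcgggaaCAGTGTttcccataat
Slc11a2 3' UTR, looser match, chr15:100395154-100395182, minus strand: gagccatcagagcCAGTGTgtttctatgg

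Library totals lay between 41721452 and 42197986 counts. Summed over 7 macrophage markers, the level was 13992 to 18420.0 CPM (counts divided by the library total times edgeR's TMM factor, per 1e+06) in every library. The sum hides moves in both directions: Lyz2, its largest part, averaged 5219 CPM in cKO_M1 and 4878 CPM in WT_M1 against 9834 CPM in cKO_M0 and 9855 CPM in WT_M0, while Adgre1 was higher in M1. Between the genotypes, Cd68 was lower (-0.46, adjusted p = 0.000498) and Itgam higher (0.25, adjusted p = 0.0268) in cKO_M1, and Mertk was lower in cKO_M0 (-0.72, adjusted p = 0.0103). Erythroid markers, which matter for iron genes, summed to at most 1.93 CPM in any library, and 4 to 5 of the 8 found in the table were at 0 counts in every library of a group. The targeted gene, Zc3h12c, which encodes Regnase-3, fell in cKO_M1 against WT_M1 (log2 fold change -0.68, SE 0.12, edgeR quasi-likelihood adjusted p = 0.00101). It had a log2 fold change of -0.07 in cKO_M0 against WT_M0 (adjusted p = 0.809). Its counts cover the whole gene, and the sources used here do not name the deleted exons.

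Stimulation moved nearly all of these genes, and genotype moved few of them. In M1 against M0, 6 genes rose and 2 fell in cKO, and 7 rose and 2 fell in WT. The largest rises were those of Lcn2, Hmox1, Slc11a1 and Fth1, and the largest fall was that of Tfrc. A gene is said to rise or fall where its adjusted p, by edgeR's quasi-likelihood test with Benjamini-Hochberg adjustment over all genes tested, was under 0.05. Of all 15110 genes, 70.2% changed with stimulation in cKO (34.2% higher, 36% lower) and 71.4% in WT (34.2% higher, 37.1% lower), so a change with stimulation was common in itself. The median size of the log2 fold change was 1.80 over the 10 genes and 0.74 over all genes in cKO, and 1.83 against 0.77 in WT. For cKO against WT, 2 of the 10 genes fell in M1, Ncoa4 and Slc11a2, and none rose, where 18.6% of all genes changed (8.98% higher, 9.67% lower). In M0 none of the 10 passed, where 1.61% of all genes changed (0.662% higher, 0.953% lower). In that comparison 5 of the 10 had an unadjusted edgeR p under 0.05, 4 passed with DESeq2 and 1 with limma-voom. The matching shares of all genes are not given here. These counts therefore cannot be set against the 1.61%, which is for edgeR's adjusted p. None of the 10 passed the test of whether the cKO effect differed between M1 and M0, where 8.16% of all genes did (4.02% upward, 4.14% downward). There 1 of the 10, Ftl1, had an unadjusted p under 0.05, and none passed with DESeq2 or limma-voom. The matching shares of all genes are again not given.

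**Figure D1:**
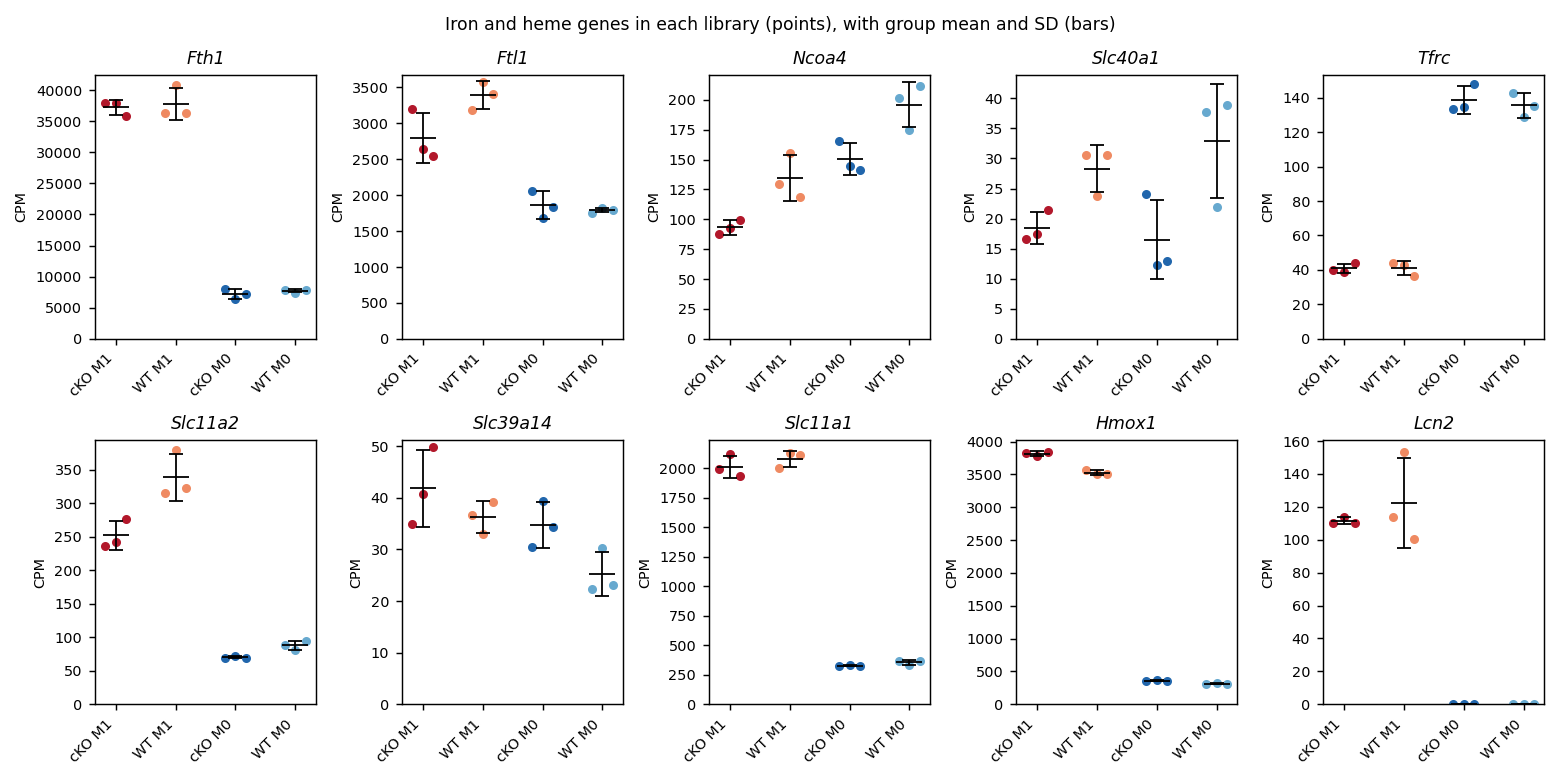
Level of each of the 10 genes in CPM (vertical axes, each from 0), with 1 point per library and a bar for the mean and SD of the 3 libraries of a group. Fth1, Ftl1, Slc11a2, Slc11a1, Hmox1 and Lcn2 stand higher in both M1 groups than in both M0 groups, Tfrc stands lower, and cKO_M0 replicate 1 and WT_M0 replicate 5 lie next to each other for Slc40a1 at 24.1 and 21.9 CPM.

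**Figure D2:**
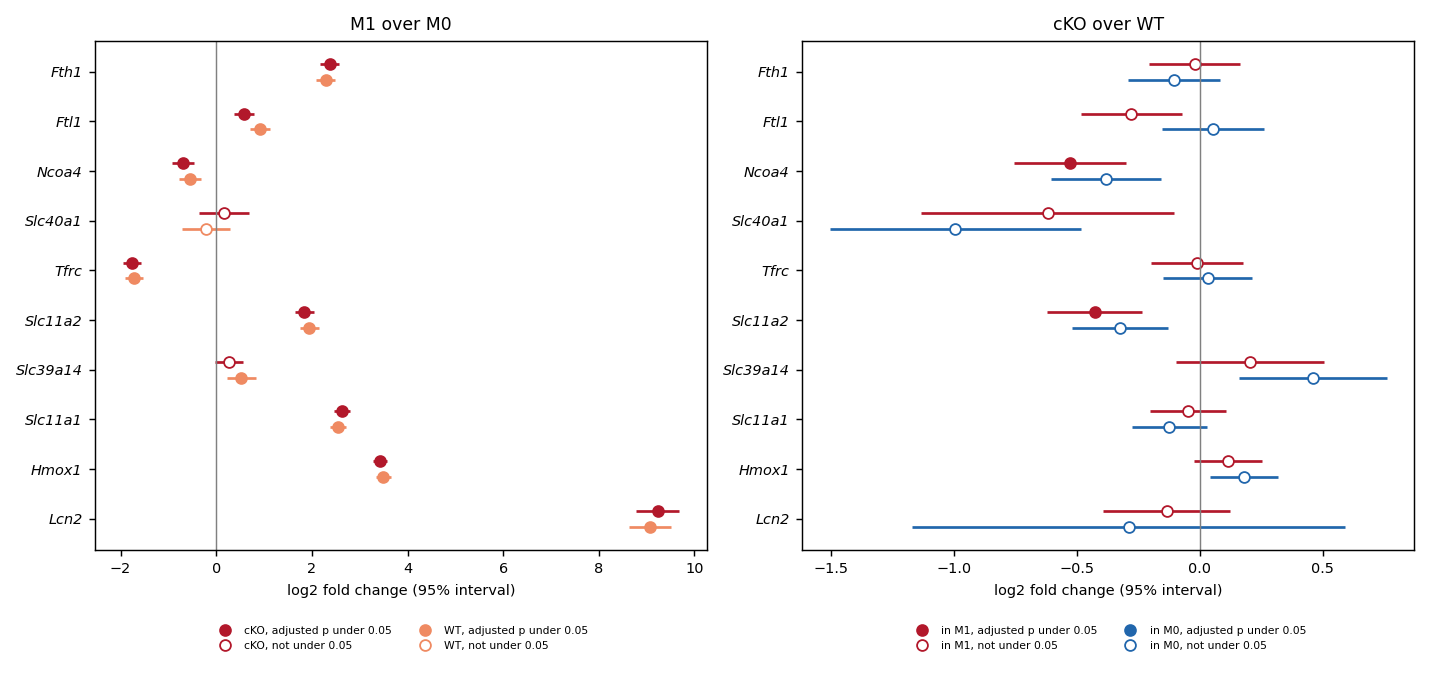
Log2 fold changes of the 10 genes with 95% intervals, for M1 over M0 (left) and cKO over WT (right). Filled points passed at an adjusted p under 0.05. On the left the cKO and WT points of each gene lie close together, and on the right Ncoa4 and Slc11a2 in M1 are the filled points; with library totals in place of TMM factors the Slc39a14 points on the left move to -0.27 in cKO and -0.06 in WT.

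Fth1 (ENSMUSG00000024661) encodes the ferritin heavy chain, which oxidises iron as it enters the shell. Its level was 37943, 37912 and 35832 CPM in cKO_M1 and 36311, 40775 and 36272 CPM in WT_M1. It was 7973, 6390.3 and 7160.2 CPM in cKO_M0 and 7883, 7445 and 7828 CPM in WT_M0. The M1 and M0 libraries were far apart, while the libraries of the genotypes overlapped in each state. Fth1 rose with stimulation by a log2 fold change of 2.38 (SE 0.09, edgeR quasi-likelihood adjusted p = 2.65e-12) in cKO and 2.29 (SE 0.09, adjusted p = 3.94e-12) in WT. This gene alone held 3.02% to 3.18% of all counts in cKO_M1 libraries and 2.95% to 3.23% in WT_M1 libraries, against 0.772% to 0.983% in cKO_M0 and 0.893% to 0.966% in WT_M0. For cKO against WT the 95% interval of the log2 fold change was -0.21 to 0.17 in M1 and -0.29 to 0.08 in M0.

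Ftl1 (ENSMUSG00000050708) encodes the ferritin light chain, which favours the build-up of the iron core. Its level was 3193, 2639 and 2551 CPM in cKO_M1 and 3185, 3571 and 3411 CPM in WT_M1. It was 2062, 1679 and 1838 CPM in cKO_M0 and 1758, 1822 and 1796 CPM in WT_M0. Ftl1 rose with stimulation by less than Fth1 did, with a log2 fold change of 0.59 (SE 0.10, adjusted p = 5.83e-05) in cKO and 0.92 (SE 0.10, adjusted p = 4.53e-07) in WT. With library totals alone, the change in cKO was 0.05 (adjusted p = 0.643). That scaling moved the median log2 difference of all genes in M1 against M0 to -0.57 in cKO and -0.64 in WT, from -0.05 and -0.07 with TMM factors. In M1, cKO replicates 8 and 9 lay below every WT library and replicate 7 lay within their range. The log2 fold change of cKO against WT in M1 was -0.28 (SE 0.10, 95% interval -0.48 to -0.07, adjusted p = 0.0577). This passed without cKO_M1 replicate 7 (-0.39, adjusted p = 0.0126), with DESeq2 (adjusted p = 0.0160) and with limma-voom (adjusted p = 0.0415). It did not pass in the other fits that left out 1 library (adjusted p up to 0.173).

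Ftl1 has processed pseudogenes of near-identical sequence, and the sources used here do not say how multiply matching reads were counted, so its values are uncertain to that extent. Rows named as Ftl pseudogenes held 2.08% to 2.50% as many counts as Ftl1 in the 12 libraries. Most of these were in Ftl1-ps1, which followed Ftl1, with log2 fold changes of 0.61 and 0.97 for M1 against M0 in cKO and WT. Ftl1-ps1 was lower in cKO_M1 against WT_M1 at -0.35 (SE 0.08, adjusted p = 0.00779). Rows of Fth1 pseudogenes held at most 0.000524% as many counts as Fth1.

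The ratio of Ftl1 to Fth1, in counts per kb of annotated exon, sets the transcripts of the shell's chains side by side. It was 0.218, 0.180 and 0.184 in cKO_M1 and 0.227, 0.227 and 0.243 in WT_M1. It was 0.670, 0.680 and 0.665 in cKO_M0 and 0.577, 0.634 and 0.594 in WT_M0. The ratio was thus lower in every M1 library than in every M0 library, with more heavy-chain transcript for each light-chain transcript in M1. The log2 ratio changed by -1.80 in cKO and by -1.37 in WT. The cKO libraries lay below the WT libraries in M1 (difference in log2 ratio -0.26) and above them in M0 (0.16), without overlap in either state. In each of these 4 comparisons an exact two-sided permutation test gave p = 0.1, the smallest that 3 against 3 libraries allow, so none could pass. The absolute ratio depends on the annotated lengths, 1340 bases for Ftl1 and 3469 for Fth1, while the differences do not.

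**Figure D3:**
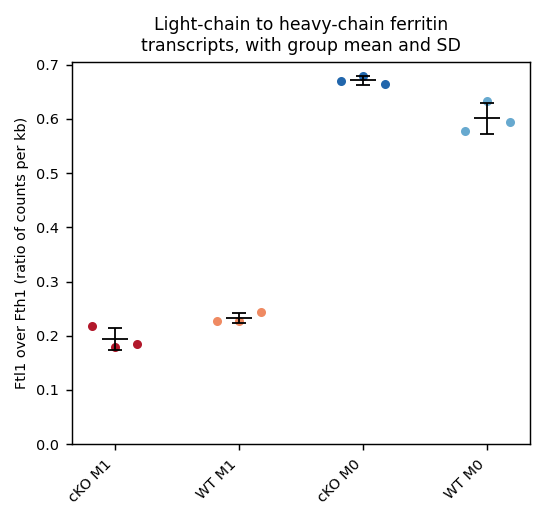
Ratio of Ftl1 to Fth1 in counts per kb (vertical axis from 0), with 1 point per library and bars for the mean and SD of 3 libraries. The M1 libraries lie between 0.180 and 0.243 and the M0 libraries between 0.577 and 0.680, and the cKO points lie below the WT points in M1 and above them in M0.

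Ncoa4 (ENSMUSG00000056234) encodes the receptor that carries ferritin to the lysosome, where its iron is released. It was lower in cKO than in WT in each state, and the libraries of the genotypes did not overlap. In M1 the level was 87.4, 93.0 and 99.5 CPM in cKO and 129, 156 and 119 CPM in WT (log2 fold change -0.53, SE 0.11, edgeR quasi-likelihood adjusted p = 0.00314). That fall passed in every alternative that was run, with adjusted p at most 0.0194 when 1 library was left out. In M0 the level was 166, 145 and 141 CPM in cKO and 201, 175 and 211 CPM in WT (log2 fold change -0.38, SE 0.11, 95% interval -0.61 to -0.16, adjusted p = 0.0805). The M0 difference did not pass, but it did with DESeq2 (adjusted p = 0.0203) and without WT_M0 replicate 5 (-0.45, adjusted p = 0.0458). It did not pass in the other fits that left out 1 library (adjusted p up to 0.404). Ncoa4 also fell with stimulation, by 0.69 in cKO and by 0.54 in WT on the log2 scale (adjusted p = 3.02e-05 and 0.000278). The cKO effect in M1 minus that in M0 was -0.15 (adjusted p = 0.596). The plasma cell marker Igkc moved with Ncoa4 in part. In M1 it had 0 counts in every cKO library and 31 to 60 counts in WT libraries. In M0 cKO replicate 1, with the most Igkc of its group, had the most Ncoa4, and WT replicate 5, with the least Igkc of its group, had the least Ncoa4. Igkc did not pass between the genotypes by edgeR's quasi-likelihood test (adjusted p = 0.0775 in M1 and 0.419 in M0). Of the 3 B and plasma cell markers tested, Igkc and Jchain had lower means in cKO in each state, and Cd79b had higher means. The part of plasma cells in the Ncoa4 values was not tested.

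Slc40a1 (ENSMUSG00000025993) encodes ferroportin, the exporter through which macrophages return iron to the blood. It varied between libraries of 1 group in M0. There it stood at 24.1, 12.4 and 13.0 CPM in cKO replicates 1, 2 and 3 and at 37.7, 21.9 and 39.0 CPM in WT replicates 4, 5 and 6. The groups overlapped at 1 pair of libraries, cKO_M0 replicate 1 above WT_M0 replicate 5. The mean was 16.5 ± 6.57 CPM in cKO_M0 and 32.8 ± 9.49 CPM in WT_M0 (SD, n = 3 each), with a log2 fold change of -0.99 (SE 0.24, 95% interval -1.50 to -0.48, adjusted p = 0.0505). It did not pass the threshold of 0.05 on the adjusted p. It passed without cKO_M0 replicate 1 (-1.37, adjusted p = 0.00417), without WT_M0 replicate 5 (-1.21, adjusted p = 0.0137), with DESeq2 (adjusted p = 0.0266) and with limma-voom (adjusted p = 0.0303). Those were the only 2 of the 6 fits leaving out 1 library that passed. Over the 6 the log2 fold change ran from -1.37 to -0.82, with adjusted p up to 0.293.

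In M1, Slc40a1 was at 16.5, 17.4 and 21.4 CPM in cKO and at 30.6, 23.8 and 30.6 CPM in WT. All 3 cKO libraries lay below all 3 WT libraries (log2 fold change -0.62, SE 0.24, 95% interval -1.14 to -0.10, adjusted p = 0.0883). The difference passed in 2 of 7 other settings, a fit of the 6 M1 libraries alone (-0.64, adjusted p = 0.00811) and one without the low-count filter. It did not pass with DESeq2 or limma-voom, nor in any fit that left out 1 library (adjusted p from 0.0731 to 0.218). Stimulation gave a log2 fold change of 0.16 in cKO (95% interval -0.36 to 0.68) and -0.21 in WT (95% interval -0.72 to 0.29), and neither passed. With library totals alone these values were -0.38 in cKO and -0.80 in WT, and the WT value then passed (adjusted p = 0.00792). In cKO the change with stimulation was 0.53 (adjusted p = 0.0350) without cKO_M0 replicate 1 and -0.01 (adjusted p = 0.966) without cKO_M0 replicate 2. Levels of Slc40a1 ran, from high to low, WT_M0, WT_M1, cKO_M1 and cKO_M0. The libraries of WT_M0 and WT_M1 overlapped, as did those of cKO_M1 and cKO_M0.

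Some markers of B and plasma cells ran in the same direction as Slc40a1 between the genotypes, and others did not. Summed over 6 markers they were at 0.284 to 0.424 CPM in cKO_M1 and 1.84 to 3.01 CPM in WT_M1, and at 2.06 to 14.1 CPM in cKO_M0 and 7.43 to 13.6 CPM in WT_M0. Of the 3 markers tested, Igkc and Jchain had lower means in cKO in each state, and Cd79b had higher means. Cd79b averaged 0.227 CPM in cKO_M1 against 0.118 CPM in WT_M1, and 2.15 CPM in cKO_M0 against 1.81 CPM in WT_M0. None of these 3 passed between the genotypes by edgeR's quasi-likelihood test (Igkc adjusted p = 0.0775 in M1 and 0.419 in M0). The plasma cell gene Igkc had 318, 4 and 0 counts in cKO_M0 replicates 1, 2 and 3 and 386, 171 and 341 counts in WT_M0 replicates 4, 5 and 6. Within each M0 group the order of the libraries by Igkc was thus near that by Slc40a1, with cKO_M0 replicate 1 high and WT_M0 replicate 5 low. Within WT_M1 it was not. There replicates 10, 11 and 12 had 31, 60 and 43 counts of Igkc, and replicate 11 had the least Slc40a1 of its group (23.8 CPM). The part of these cells in the Slc40a1 values was not tested. In bulk libraries fewer cells of a type and less RNA per cell cannot be told apart.

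Tfrc (ENSMUSG00000022797) encodes transferrin receptor 1, which brings iron-loaded transferrin into the cell, and carries the 4 hairpins shown above in its 3' UTR. Its level was 39.8, 38.8 and 44.1 CPM in cKO_M1 and 44.0, 42.9 and 36.8 CPM in WT_M1. It was 133, 135 and 148 CPM in cKO_M0 and 143, 129 and 135 CPM in WT_M0. Tfrc fell with stimulation in both genotypes, by 1.76 (SE 0.09, edgeR quasi-likelihood adjusted p = 5.63e-11) in cKO and by 1.72 (SE 0.09, adjusted p = 7.49e-11) in WT on the log2 scale. For cKO against WT the 95% interval was -0.20 to 0.18 in M1 and -0.15 to 0.21 in M0. Of the genes with a hairpin in the 5' UTR, Fth1 and Ftl1 rose with stimulation and Slc40a1 neither rose nor fell. Whether the hairpins had a part in these changes was not tested.

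Slc11a2 (ENSMUSG00000023030) encodes DMT1, which moves ferrous iron across the endosomal and plasma membranes. It was lower in cKO than in WT in each state, without overlap of libraries. In M1 its level was 237, 243 and 277 CPM in cKO and 315, 379 and 323 CPM in WT (log2 fold change -0.43, SE 0.09, adjusted p = 0.00415). The fall in M1 passed in every alternative that was run, with adjusted p at most 0.0242 when 1 library was left out. In M0 its level was 69.0, 72.3 and 69.4 CPM in cKO and 88.8, 81.1 and 93.9 CPM in WT (log2 fold change -0.32, SE 0.09, 95% interval -0.52 to -0.13, adjusted p = 0.0824). The M0 difference did not pass but did with DESeq2 (adjusted p = 0.0202). It passed in no fit that left out 1 library (adjusted p from 0.0570 to 0.416). Slc11a2 rose with stimulation by 1.84 in cKO and 1.95 in WT (SE 0.09 each, adjusted p = 6.15e-11 and 3.15e-11), so it moved opposite to Tfrc. Transcripts with and without the 3' hairpin are counted together in a gene total.

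Slc39a14 (ENSMUSG00000022094) encodes ZIP14, an importer of zinc that also takes up iron not bound to transferrin. Its level was 35.0, 40.7 and 49.8 CPM in cKO_M1 and 36.6, 32.9 and 39.2 CPM in WT_M1. In M0 it was at 30.4, 39.4 and 34.4 CPM in cKO and 22.4, 30.2 and 23.2 CPM in WT. The lowest cKO_M0 library and the highest WT_M0 library, replicate 5, were almost equal. The log2 fold change of cKO against WT was 0.21 in M1 (95% interval -0.10 to 0.51) and 0.46 in M0 (SE 0.14, 95% interval 0.16 to 0.76, adjusted p = 0.108). The M0 value passed without WT_M0 replicate 5 (0.61, adjusted p = 0.0376) but in no other fit that left out 1 library (adjusted p up to 0.437). With stimulation it rose in WT by 0.52 (SE 0.14, adjusted p = 0.00383), a direction that turned with library totals alone (-0.06, adjusted p = 0.708). In cKO the value was 0.27 (SE 0.14, 95% interval -0.03 to 0.57), which passed without cKO_M0 replicate 2 (0.36, adjusted p = 0.0466) or cKO_M1 replicate 7 (0.39, adjusted p = 0.0198) and turned to -0.27 with library totals alone.

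Slc11a1 (ENSMUSG00000026177) encodes NRAMP1, which pumps iron and manganese out of the phagosome and so away from engulfed microbes. Its level was 1992, 2119 and 1932 CPM in cKO_M1 and 2006, 2133 and 2112 CPM in WT_M1, against 324, 331 and 324 CPM in cKO_M0 and 368, 333 and 366 CPM in WT_M0. It rose with stimulation by 2.63 in cKO and 2.55 in WT (SE 0.08 each, edgeR quasi-likelihood adjusted p = 9.88e-14 and 1.47e-13). Its spread between libraries was small, and for cKO against WT the 95% interval was -0.20 to 0.10 in M1 and -0.28 to 0.03 in M0.

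Hmox1 (ENSMUSG00000005413) encodes heme oxygenase 1, which opens heme to biliverdin, carbon monoxide and iron. Its level was 3827, 3779 and 3844 CPM in cKO_M1 and 3568, 3504 and 3514 CPM in WT_M1. It was 351, 364 and 351 CPM in cKO_M0 and 308, 321 and 312 CPM in WT_M0. Stimulation raised it by a log2 fold change of 3.42 (SE 0.07, adjusted p = 3.50e-15) in cKO and 3.49 (SE 0.07, adjusted p = 3.95e-15) in WT. The cKO libraries lay above the WT libraries in both states without overlap, but the differences were small, 0.11 in M1 (95% interval -0.02 to 0.25, adjusted p = 0.245) and 0.18 in M0 (95% interval 0.04 to 0.32, adjusted p = 0.159). Only the M0 difference passed in an alternative, with DESeq2 (adjusted p = 0.0134).

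Lcn2 (ENSMUSG00000026822) encodes lipocalin 2, a secreted protein that captures bacterial siderophores and the iron they hold. It was close to silent without stimulation, with 6, 12 and 10 counts in cKO_M0 and 10, 12 and 12 counts in WT_M0. In M1 it had 3880, 4015 and 3901 counts in cKO and 3884, 5094 and 3420 counts in WT. The log2 fold change with stimulation was 9.23 (SE 0.21, 95% interval 8.78 to 9.68) in cKO and 9.08 (SE 0.21, 95% interval 8.63 to 9.52) in WT, with adjusted p = 8.07e-15 and 8.65e-15. For cKO against WT the 95% interval was -0.39 to 0.12 in M1 and, at these few counts, -1.17 to 0.59 in M0. Neutrophils also make Lcn2. Summed over 11 neutrophil markers, libraries held 32.6 to 39.3 CPM in cKO_M1 and 23.3 to 34.4 CPM in WT_M1, and 13.8 to 22.8 CPM in cKO_M0 and 20.2 to 26.0 CPM in WT_M0. Most of it was Mmp8, and S100a8 averaged 11.2 CPM in cKO_M1 and 8.04 CPM in WT_M1 against 0.495 CPM in cKO_M0 and 0.453 CPM in WT_M0. S100a8 rose with stimulation by 4.49 in cKO and 4.14 in WT (adjusted p = 4.36e-08 and 1.33e-07). S100a9 averaged 0.114 CPM in cKO_M1 and 0.118 CPM in WT_M1, against 0.39 CPM in cKO_M0 and 0.203 CPM in WT_M0, and Ly6g had at most 2 counts in any library. The part of neutrophils in the Lcn2 values was not tested.

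Between M1 and M0 libraries, 8 of the 10 genes did not overlap in cKO, where 72.7% of all genes did not, and 9 of 10 in WT, where 75.6% did not. In each genotype comparison several of the 10 genes separated without overlap whether or not they passed. In M1 these were 4 of 10, Hmox1 higher and Slc40a1, Ncoa4 and Slc11a2 lower in cKO, where 33.7% of all genes separated. In M0 they were 5 of 10, Hmox1 and Slc39a14 higher and Slc11a1, Ncoa4 and Slc11a2 lower in cKO, where 26.2% of all genes did. The shared members of both lists were Hmox1, Ncoa4 and Slc11a2. The median log2 fold change of cKO against WT over the 10 genes was -0.09 in M1, against 0.02 over all genes, and -0.11 in M0, against 0.01 over all genes.

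Levels of different genes can be set side by side only per length. In CPM per kb of annotated exon, Fth1 was the highest of the 10 in each group, at 10732 in cKO_M1, 10893 in WT_M1, 2068 in cKO_M0 and 2225 in WT_M0. Ftl1 and Hmox1 came next in M1, with Ftl1 at 2086 CPM per kb in cKO_M1 and 2529 CPM per kb in WT_M1 and Hmox1 at 2179.8 CPM per kb in cKO_M1 and 2015 CPM per kb in WT_M1. In cKO_M1 the libraries of these genes overlapped in this measure. The exporter Slc40a1 was the lowest of the 10 in M1, at 2.05 CPM per kb in cKO and 3.15 CPM per kb in WT, while Lcn2 was the lowest in M0. The deposited length counts all annotated exons, so a gene with long, rarely used exons appears lower in this measure.

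For each of the 10 genes, the closest profiles were taken as those with the smallest root mean square difference in log2 CPM over the 12 libraries, after centring each gene on its own mean. Fth1 was nearest to Cept1, an enzyme of phospholipid synthesis (0.09), and to the copper importer Slc31a1 (0.09). Slc11a1 was nearest to Il2rg, the common gamma chain of cytokine receptors (0.07). Slc11a2 was nearest to the cathepsin gene Ctsz (0.08), Ftl1 to the autophagy gene Atg12 (0.09) and Tfrc to the RNA-binding protein gene Hnrnph1 (0.08). Slc39a14 was nearest to Pdlim7 (0.09), Ncoa4 to Nipal3 (0.12) and Hmox1 to Tapbpl (0.13). The least closely matched were Slc40a1, with Clec7a, which encodes the beta-glucan receptor Dectin-1 (0.24), and Lcn2, with Acod1, the enzyme that makes itaconate (0.27). Among the 10 genes themselves, Fth1 and Slc11a1 were the closest pair (0.15).

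Around these genes stood 6 lists with 58 further genes of iron and heme handling, of which 46 were tested. In M1 against M0, 16 rose and 20 fell in cKO, and 16 rose and 23 fell in WT. For cKO against WT, 4 rose and 7 fell in M1, and 2 fell and none rose in M0. As shares of those tested these were 78.3% and 84.8% with stimulation and 23.9% and 4.35% with genotype, to be read against the shares of all genes above. The remaining 12 genes, among them Hamp, which encodes the hormone hepcidin, and the reductase gene Steap4, had too few counts to be tested, at most 0.439 CPM in any library.

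Heme synthesis genes split with stimulation. Alas1, the rate-limiting enzyme of the pathway, rose by 2.34 in cKO and 2.41 in WT, while 5 of the 8 tested genes fell in each genotype, where 36% of all genes in cKO and 37.1% in WT fell. In M1, Alas1 was lower in cKO, at 485 ± 18.5 CPM against 601 ± 14.2 CPM in WT (SD, n = 3 each; log2 fold change -0.31, SE 0.07, adjusted p = 0.00802).

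Genes for uptake, export and breakdown of heme and hemoglobin moved both ways: 5 of 11 rose and 4 fell with stimulation in each genotype, where 34.2% of all genes rose in each and 36% in cKO and 37.1% in WT fell. Hp, which encodes haptoglobin, the binder of free hemoglobin, rose by 4.89 in cKO and 4.64 in WT. Flvcr1, which encodes an exporter proposed for heme, rose with stimulation by 1.00 in cKO and 1.70 in WT. In M1 it was at 83.4, 88.5 and 104 CPM in cKO and 159, 174 and 149 CPM in WT (log2 fold change -0.80, SE 0.09, adjusted p = 5.40e-05), with a wide gap between the groups. It was the only gene of this list to pass between the genotypes in M1, 1 of 11 (9.09%), where 18.6% of all genes passed. In M0 its log2 fold change was -0.10 (95% interval -0.29 to 0.09, adjusted p = 0.582).

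All 6 tested genes of iron uptake, reduction and oxidation changed with stimulation, 2 up and 4 down in each genotype, where 70.2% of all genes in cKO and 71.4% in WT changed. Cp, which encodes ceruloplasmin, the oxidase that works with ferroportin, rose by 6.04 in cKO and 4.84 in WT, and Slc39a8, which encodes the metal importer ZIP8, fell by 3.37 in cKO and by 3.08 in WT. Trf, which encodes transferrin, was lower in cKO in both states. In M1 it was at 44.3, 48.9 and 51.9 CPM in cKO and 71.2, 83.0 and 74.0 CPM in WT (log2 fold change -0.65, SE 0.13, adjusted p = 0.00264). In M0 it was at 173, 130.4 and 139 CPM in cKO and 247, 194 and 272 CPM in WT (log2 fold change -0.69, SE 0.13, adjusted p = 0.0223). The cKO libraries lay below the WT libraries in each state. As with Slc40a1 and Ncoa4, cKO_M0 replicate 1 was the highest of its group and WT_M0 replicate 5 the lowest of its group for Trf, as they were for Igkc, and in M1 Igkc had 0 counts in the cKO libraries. Igkc did not pass between the genotypes in either state. Jchain, like Igkc, had lower means in cKO in each state, while Cd79b of the same marker list had higher means. The part of plasma cells in the Trf values was not tested. Cp in M0 was at 1.76, 2.30 and 1.71 CPM in cKO and 6.18, 2.36 and 5.45 CPM in WT, with WT replicate 5 close to the cKO libraries (log2 fold change -1.28, SE 0.26, adjusted p = 0.0345). The M0 calls of Trf and Cp were both lost when cKO_M0 replicate 2 or 3, or WT_M0 replicate 4 or 6, was left out, with adjusted p from 0.0809 to 0.183 for Trf and from 0.0662 to 0.213 for Cp. Mcoln1, a channel that lets iron out of the lysosome, was lower in cKO_M1 (-0.54, SE 0.10, adjusted p = 0.00133).

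Among the iron sensors and regulators, Fbxl5, the iron-sensing subunit of the ligase that degrades iron regulatory protein 2, rose with stimulation by 3.36 in cKO and 2.63 in WT. In M1 it was at 387, 397 and 319 CPM in cKO and 236, 160 and 214 CPM in WT, so every cKO library was above every WT library (log2 fold change 0.85, SE 0.12, adjusted p = 0.000233). Spic, a transcription factor of the iron-recycling macrophages of the spleen, was at 8.69, 7.80 and 8.86 CPM in cKO_M1 and 23.5, 29.5 and 18.9 CPM in WT_M1 (log2 fold change -1.50, SE 0.21, adjusted p = 0.000257). Hfe, which encodes a partner of transferrin receptor 1, fell with stimulation by 2.28 in cKO and by 2.24 in WT. The genes of the iron regulatory proteins had 95% intervals for cKO against WT of -0.15 to 0.21 (Aco1) and 0.01 to 0.36 (Ireb2, adjusted p = 0.131) in M1, and of -0.30 to 0.05 (Aco1) and -0.18 to 0.17 (Ireb2) in M0. The only members of this list that passed between the genotypes were Fbxl5 and Spic, both in M1. They were 2 of the 8 tested (25%), where 18.6% of all genes passed in M1.

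Of the partners of ferritin, Tax1bp1, an adaptor of selective autophagy that works with NCOA4, rose with stimulation by 1.84 in cKO and 2.2 in WT and was lower in cKO_M1 than in WT_M1 (-0.36, SE 0.08, adjusted p = 0.00441). Herc2, a ligase that binds NCOA4 when iron is plentiful, was higher in cKO_M1 (0.47, SE 0.12, adjusted p = 0.0142), a call lost without cKO_M1 replicate 8 or 9 or WT_M1 replicate 11 (adjusted p up to 0.0809). The iron chaperone genes Pcbp1 and Pcbp2 had log2 fold changes of 0.04 (adjusted p = 0.811) and -0.20 (adjusted p = 0.0793) for cKO against WT in M1. Of 9 genes of mitochondrial iron and iron-sulfur clusters, Slc25a37, the iron importer mitoferrin 1, rose with stimulation by 2.0 in cKO and 1.76 in WT, and Abcb10 fell by 1.33 in cKO and by 1.84 in WT. In M1, Slc25a28 was lower in cKO (-0.27, adjusted p = 0.0370) and Abcb10 higher (0.35, adjusted p = 0.0420). Those calls were lost without most of the 6 libraries in turn, 4 of 6 for Slc25a28, the exceptions being cKO_M1 replicate 7 and WT_M1 replicate 10, and 5 of 6 for Abcb10, the exception being cKO_M1 replicate 7 (adjusted p up to 0.116 and 0.158).

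**Figure D4:**
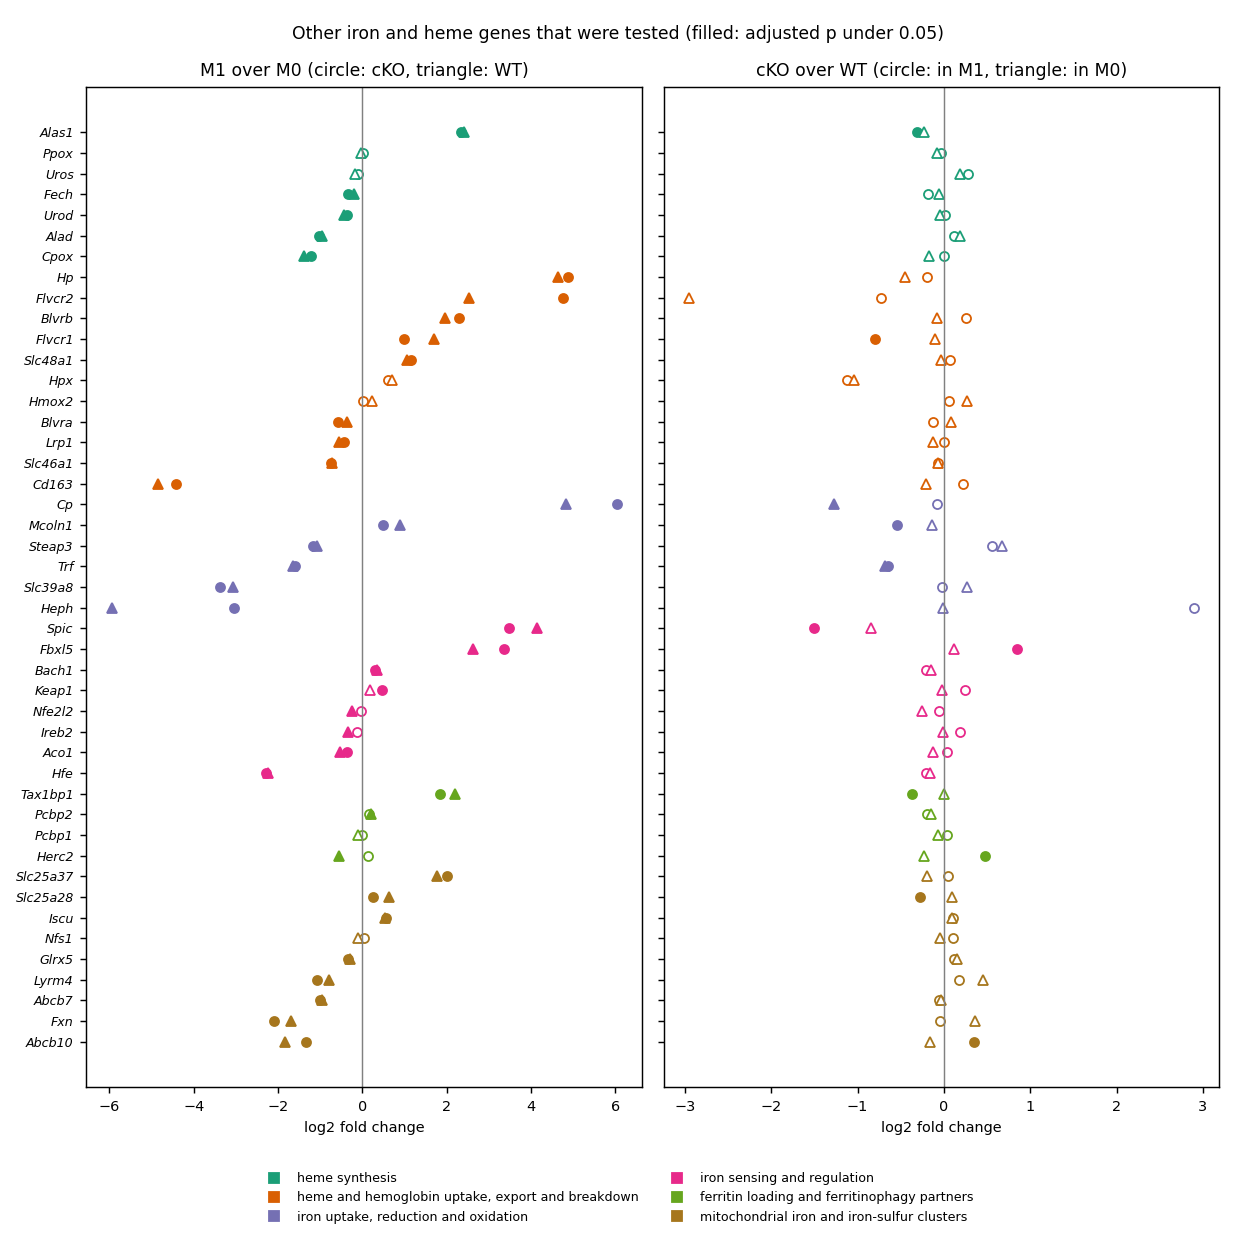
Log2 fold changes of tested genes of the 6 further lists, coloured by list, for M1 over M0 (left, circles cKO, triangles WT) and cKO over WT (right, circles M1, triangles M0). Filled symbols passed at an adjusted p under 0.05; on the right, Spic, Flvcr1, Trf and Mcoln1 are filled to the left of 0 and Fbxl5 to the right, in M1, and fitted values of genes with few counts, such as Heph and Flvcr2, are imprecise.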

How the data were processed

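The submitters' processing notes name featureCounts 2.0.3, HISAT2 2.2.1, Trimmomatic 0.39 and SAMtools 1.16.1, with build GRCm39. The sources used here do not give the strand option, the handling of multiply matching reads or the annotation release. The deposited values are raw counts per gene for 12 libraries, with a gene length. Of values from 1 to 10, 60.9% were even, so halved counts were an alternative. Symbols came from a reference name table for 52073 of 56980 IDs (Hjv by its older symbol).

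Genes were filtered with filterByExpr (minimum count 10, total 15), scaled by TMM (mean factors 0.84, 0.808, 1.22 and 1.21 in cKO_M1, WT_M1, cKO_M0 and WT_M0), and tested with edgeR 4.0.16 in R 4.3.3 by the quasi-likelihood F-test, with 1 mean per group, all 12 libraries and Benjamini-Hochberg adjustment over 15110 genes. A gene passed, and is said to rise or fall, at an adjusted p under 0.05. The steps were tested on simulated data. Log2 CPM used a prior count of 2. Alternatives used DESeq2 1.42.0 and limma 3.58.1, other scalings and filters, and left out libraries.

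The 10 genes and the lists were chosen with earlier results of these data known. From each further list, up to 2 passing genes with the smallest p per comparison were named, for cKO against WT in each state and for M1 against M0 in WT. Genes outside this rule (Aco1, Ireb2, Pcbp1, Pcbp2, Hamp, Steap4, Heph, Flvcr2, and single markers) were chosen after their values were seen. Some genes that the rule would name are not reported here.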

Additional observations from a re-analysis of the deposited data

Results flagged for a closer look

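By edgeR's test of whether the cKO effect differed between M1 and M0, none of the 10 genes passed. Of the 46 tested genes of the further lists 4 passed (8.7%), a share near the 8.16% of all genes that did. For Flvcr1 the cKO effect in M1 minus that in M0 was -0.71 on the log2 scale (SE 0.13, adjusted p = 0.00477), and it passed whichever of the 12 libraries was left out. For Fbxl5 the value was 0.73 (SE 0.17, adjusted p = 0.0178), lost without cKO_M1 replicate 8 (adjusted p = 0.0618). For Herc2 it was 0.70 (SE 0.17, adjusted p = 0.0225), lost without cKO_M0 replicate 3, WT_M0 replicate 6, cKO_M1 replicate 8 or WT_M1 replicate 11 (adjusted p from 0.0591 to 0.0671). For Cp it was 1.19 (SE 0.32, adjusted p = 0.0357). The Cp value did not pass with limma-voom (adjusted p = 0.0737). It was also lost in 8 of the 12 fits that left out 1 library (adjusted p from 0.0507 to 0.106), the exceptions being cKO_M0 replicate 2, WT_M0 replicate 5 and cKO_M1 replicates 7 and 9.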

How the results depend on the processing

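The counts that moved by over 1.5 times were mainly those of cKO against WT in M0. The 10 genes gave 4 calls there with DESeq2, 4 without the low-count filter and 1 with RLE factors, limma-voom, halved counts or the 6 M0 libraries alone, and 0 to 3 with 1 library left out. The further lists gave 5 calls with DESeq2, 6 with no filter and 1 with the M0 libraries alone, and 0 to 3 with 1 library left out. In M1 the 10 genes gave 4 calls with no filter. For the difference between the cKO effects, the further lists gave 8 calls with DESeq2 and 1 to 7 with 1 library left out, and the 10 genes 0 to 1. The shares of all genes called under these alternatives are not given here. The counts therefore cannot be read as particular to these genes. The cause of the moves was not tested. With library totals alone, cKO against WT in M1 turned to 0.035 for Fth1, 0.045 for Tfrc and 0.0077 for Slc11a1, M1 against M0 turned to -0.059 for Slc39a14 in WT and, in cKO, to -0.38 for Slc40a1, -0.27 for Slc39a14 and -0.39 for Herc2, and the difference of cKO effects to 0.0047 for Tfrc. With 1 library left out, values on both sides of 0 ran, for cKO against WT in M0, from -0.024 to 0.13 for Ftl1 and from -0.013 to 0.073 for Tfrc. They ran, in M1, from -0.0997 to 0.031 for Tfrc, from -0.062 to 0.022 for Fth1 and from -0.27 to 0.045 for Lcn2. For M1 against M0 in cKO they ran from -0.0135 to 0.53 for Slc40a1, and for the difference between the cKO effects from -0.086 to 0.37 for Lcn2 and from -0.12 to 0.0061 for Tfrc. The falls of Ncoa4 and Slc11a2 in cKO_M1 passed in every alternative run. No paired analysis was possible because no replicate number is shared between groups. Depth limits Lcn2 in M0, with at most 12 counts per library.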
